A study of Mus musculus with 18 samples.

Results

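The granins and the prohormone convertases were taken as 8 genes, Chga, Chgb, Scg2, Scg3, Scg5, Vgf, Pcsk1 and Pcsk2, of the 23420 gene symbols in the count files. They were chosen by name, after a lower count of Chga had been seen in embryonic stem (ES) cells given LG268 and GW3965 together than in cells given GW3965 alone. That contrast is therefore described here without a test, and Chga is described without a test wherever those libraries enter.

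RNA-seq of cultures from E14 wild-type mouse ES cells, a feeder-free line, gave 18 libraries in 9 groups of 2. ES cells in medium with leukemia inhibitory factor were sampled as controls or after 24 h with GW3965, an agonist of the liver X receptors (LXR), with LG268, an agonist of the retinoid X receptors (RXR), or with both, each at 1 µM and with dimethylsulfoxide as vehicle. Neural differentiation went through embryoid bodies with 5 µM retinoic acid over 4 days, then plating on laminin in N2 medium. Cultures were sampled at day 8, at day 16 and day 17 without ligand, and at day 16 and day 17 with 1 µM GW3965. The labels give no length of exposure for those GW3965 cultures; the file names read as exposure from day 8 in the day 16 group and of 24 h in the day 17 group, so day and exposure cannot be told apart. The labels call every sample embryonic stem cells, do not say that replicates were separate cultures, and name both ligands for a group whose file names read as control. If replicates were technical, p-values measure the spread between these libraries only. All ES groups share the wild-type line, and all later groups share retinoic acid.

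Granins are acidic proteins that pack peptide hormones into dense-core vesicles and are themselves cut into peptides. Chga and Chgb are the chromogranins, Scg2 is the precursor of secretoneurin, Scg3 ties chromogranins to the vesicle membrane, and Vgf is a precursor induced by neurotrophins. Pcsk1 and Pcsk2 encode the convertases that cut prohormones after pairs of basic residues, and Scg5 encodes 7B2, the chaperone that Pcsk2 needs to mature. All are best known from neurons and endocrine cells.

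RefSeq promoters (GRCm38.p6) were listed for 7 of the 8 genes. The cyclic-AMP response element, to which CREB factors bind, is known from granin promoters, so the letters TGACGTCA and the looser TGACGTNA were searched on both strands in the 250 bases before the RefSeq start. TGACGTNA, which includes every TGACGTCA, stood in 4 of the 7 promoters and in 2.92% of 27025 genes with a listed promoter. TGACGTCA stood in 3 of the 7 and in 1.77% of the genes. The 4 are shown because they carry these letters, which are in capitals. Each runs 5′ to 3′ along the gene. Chga is the window chr12:102554691-102554940 (plus strand, the whole 250 bases), Chgb chr2:132781559-132781588 (plus), Scg2 chr1:79440076-79440105 (minus) and Pcsk1 chr13:75089768-75089797 (plus).
Chga: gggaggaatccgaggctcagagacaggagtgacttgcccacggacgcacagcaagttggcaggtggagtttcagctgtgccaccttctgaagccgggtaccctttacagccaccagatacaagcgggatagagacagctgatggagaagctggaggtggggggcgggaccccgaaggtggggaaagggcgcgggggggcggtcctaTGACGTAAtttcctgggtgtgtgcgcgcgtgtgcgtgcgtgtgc
Chgb: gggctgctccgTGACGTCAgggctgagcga
Scg2: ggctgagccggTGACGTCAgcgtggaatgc
Pcsk1: ccaggtagatcTGACGTCAagagatggctt
The match ended 36 bases before the RefSeq start in Chga, 64 in Chgb, 60 in Scg2 and 70 in Pcsk1. The stretches of Chgb and Scg2 lie inside exon bases of the same genes in GENCODE M21, which starts them farther upstream. The shorter letters TGACG, part of both motifs, stood in 7 of 7 promoters and in 19.8% of genes. AGGTCA, the half-site of nuclear receptors such as LXR and RXR, stood in 0 of 7 and in 15.8% of genes. These are matches of letters in a window, not measured binding. The cyclic-AMP motif was chosen as known from granin promoters, so its share in the 7 promoters is no test.

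The genes lie apart in the genome (GRCm38, GENCODE M21), except that Chgb, Scg5 and Pcsk2 share chromosome 2. Chga spans chr12:102554969-102565028, Chgb chr2:132781278-132795079, Scg2 chr1:79434669-79440120, Scg3 chr9:75643189-75684056 and Scg5 chr2:113776362-113829121. Vgf spans chr5:137026392-137033351, Pcsk1 chr13:75089826-75134861 and Pcsk2 chr2:143546156-143816285. Counts are per whole gene, over all exons. No exon base was shared with another gene of the files, and the share of 50-base words found in another gene was 3.69% for Pcsk2, 0.074% for Chga and 0 for the others. Pcsk2 overlaps the antisense genes Pcsk2os1 and Pcsk2os2, which are not listed as symbols of their own, and the counting strand is not given in the sources used here.

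Libraries held 16.75 to 44.79 M gene counts (median 23.51), and 17166 genes, with all 8 members, passed the filter on low counts. The 4 day 17 files list 31.8 to 33.5% of reads apart as multiply aligned against 0 in the other 14. Day 17 against day 16 therefore differs in counting as well as in day. Without those reads, 63.4 to 63.61% went to no gene at day 17, against 62.77 to 65.92% in the other 14 files. Replicates differed most at day 16 with GW3965 (mean chi-square per gene 42.06) and with both ligands (10.74), against 2.858 to 7.117 in the other groups. Abca1, a target of LXR, read 8.15 CPM in ES controls, 336 with GW3965, 38.96 with LG268 and 554 with both. Abca1 rose with GW3965 by 3.88-fold at day 16 and 2.20-fold at day 17 (edgeR's quasi-likelihood test, Benjamini-Hochberg adjusted p = 2.683e-12 and 1.585e-09). In these bulk cultures fewer cells of a type and less RNA per cell cannot be told apart.

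Pcsk1 had the highest level per length of the 8 genes in ES cells and the lowest in every differentiated group. In ES controls Pcsk1 stood at 11.5 reads per kb of exon per M counts, Chga at 1.72, Scg5 at 1.41, Vgf at 0.838 and Scg3 at 0.671. Pcsk2 stood there at 0.200, and Chgb and Scg2 at 0.0842 and 0.0830. At day 8 the order per length was Scg3 (31.9), Scg5 (24.6), Chgb (17.9), Scg2 (11.4), Chga (9.96), Pcsk2 (4.07), Vgf (0.933) and Pcsk1 (0.169). By day 17 Scg2, at 33.4, led the list.

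Within a gene, the unit compared was CPM, the gene's counts divided by the library's TMM-scaled total in M. The widest range was that of Scg2, whose group means ran 1132-fold from 0.107 CPM with both ligands in ES cells to 121 at day 16 with GW3965. Its low end rests on 1 and 3 counts (exact 95% Poisson interval 0.0272 to 0.256 CPM without TMM scaling), so the size of that fold is uncertain. The low end of Chgb, in ES controls, rests on 6 and 5 counts. Chgb ran 335-fold, Scg3 120-fold, Pcsk1 80.4-fold, Pcsk2 64.5-fold, Chga 29.2-fold, Scg5 24.7-fold and Vgf 9.04-fold. Day 16 with GW3965 was the highest group for Chga, Chgb, Scg2, Scg5 and Pcsk2. Scg3 was highest at day 8 (86.9 and 87.9 CPM), with libraries that overlapped those of day 16 with GW3965. Vgf was highest at day 17 and overlapped the same group. Only Pcsk1 was highest in ES cells, with both ligands.

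**Figure D1:**
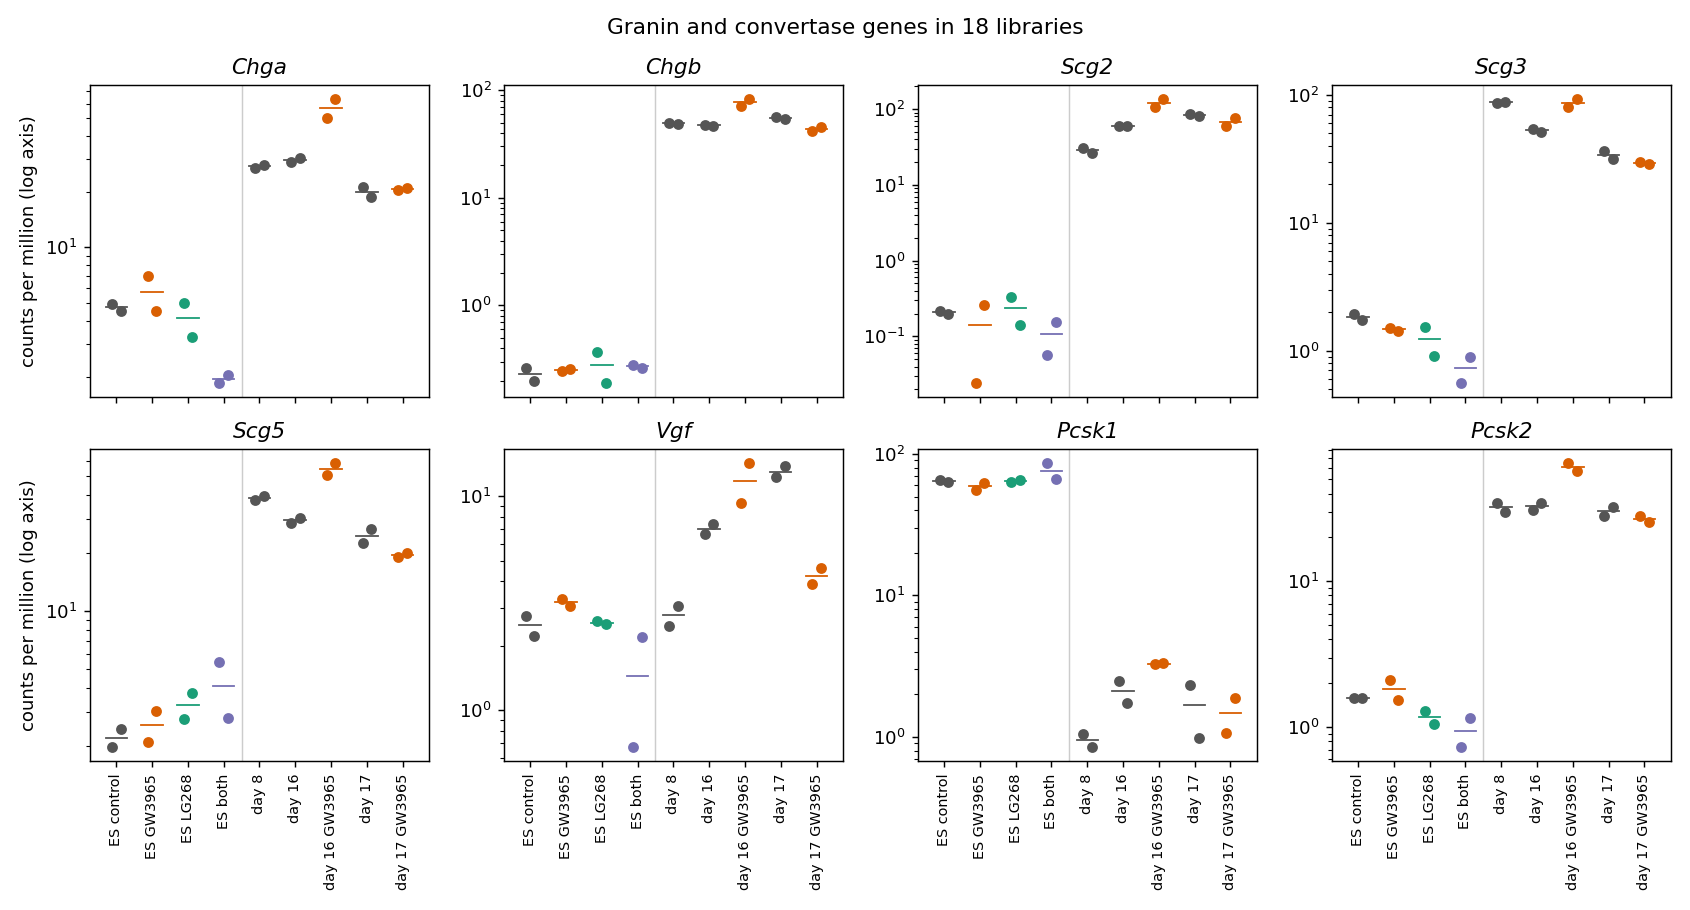
CPM (log axis, a separate scale in each panel) of the 8 genes in 18 libraries; points are libraries, short lines the mean of 2, grey no ligand, orange GW3965, green LG268 and violet both ligands. Chgb stays below 0.37 CPM in the 8 ES libraries and above 41 in every later one. Pcsk1 stays above 56 CPM in the 8 ES libraries and at or below 3.305 in every later one.

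In ES cells, Chga was lowest with both ligands, the observation by which the set was chosen. Chga read 4.97 and 4.50 CPM in controls, 7.02 and 4.51 with GW3965, 4.99 and 3.29 with LG268, and 1.85 and 2.05 with both. The both-ligand libraries lay below every other ES library, while the other 3 groups overlapped. The group means were 1.95 CPM with both ligands and 5.77 with GW3965 alone. The fold fitted by edgeR was 3.07-fold lower than with GW3965 (log2 fold change -1.62, SE 0.26, n = 2 a group), 2.42-fold lower than control and 2.16-fold lower than LG268. Without the first GW3965 library the value against GW3965 was -1.21 for Chga, and without the second -1.85.

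Scg3, the membrane anchor of chromogranins, read 1.93 and 1.74 CPM in controls, 1.49 and 1.44 with GW3965, 1.54 and 0.906 with LG268, and 0.561 and 0.892 with both. The lowest 3 of the 8 ES libraries were the both-ligand pair and the second LG268 library. Pcsk2, the later-acting convertase, read 1.58 in both controls, 2.11 and 1.54 with GW3965, 1.28 and 1.05 with LG268, and 0.730 and 1.15 with both. Its both-ligand libraries lay below control and GW3965 and overlapped LG268. Vgf read 2.77 and 2.21 in controls, 3.30 and 3.08 with GW3965, 2.61 and 2.53 with LG268, and 0.673 and 2.20 with both. The lower of the last pair set the mean, and the higher lay just under the lower control.

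Scg5, the chaperone of Pcsk2, stood higher with both ligands than in controls, unlike its partner. It read 1.98 and 2.45 CPM in controls, 2.11 and 3.02 with GW3965, 2.75 and 3.77 with LG268, and 5.44 and 2.78 with both. Pcsk1 read 65.4 and 63.5 in controls, 56.0 and 62.3 with GW3965, 63.1 and 65.4 with LG268, and 85.8 and 66.4 with both. For Scg5 and Pcsk1 the first both-ligand library stood above all others, and the second was near the LG268 libraries. Chgb and Scg2 were close to the limit of detection in ES cells: Chgb had 4 to 10 counts a library and Scg2 had 1 to 9. Summed over the control pair, Chgb had 0.213 CPM without TMM scaling (exact 95% Poisson interval 0.106 to 0.381) and Scg2 had 0.194 (0.0929 to 0.356), an error of counting only.

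**Figure D2:**
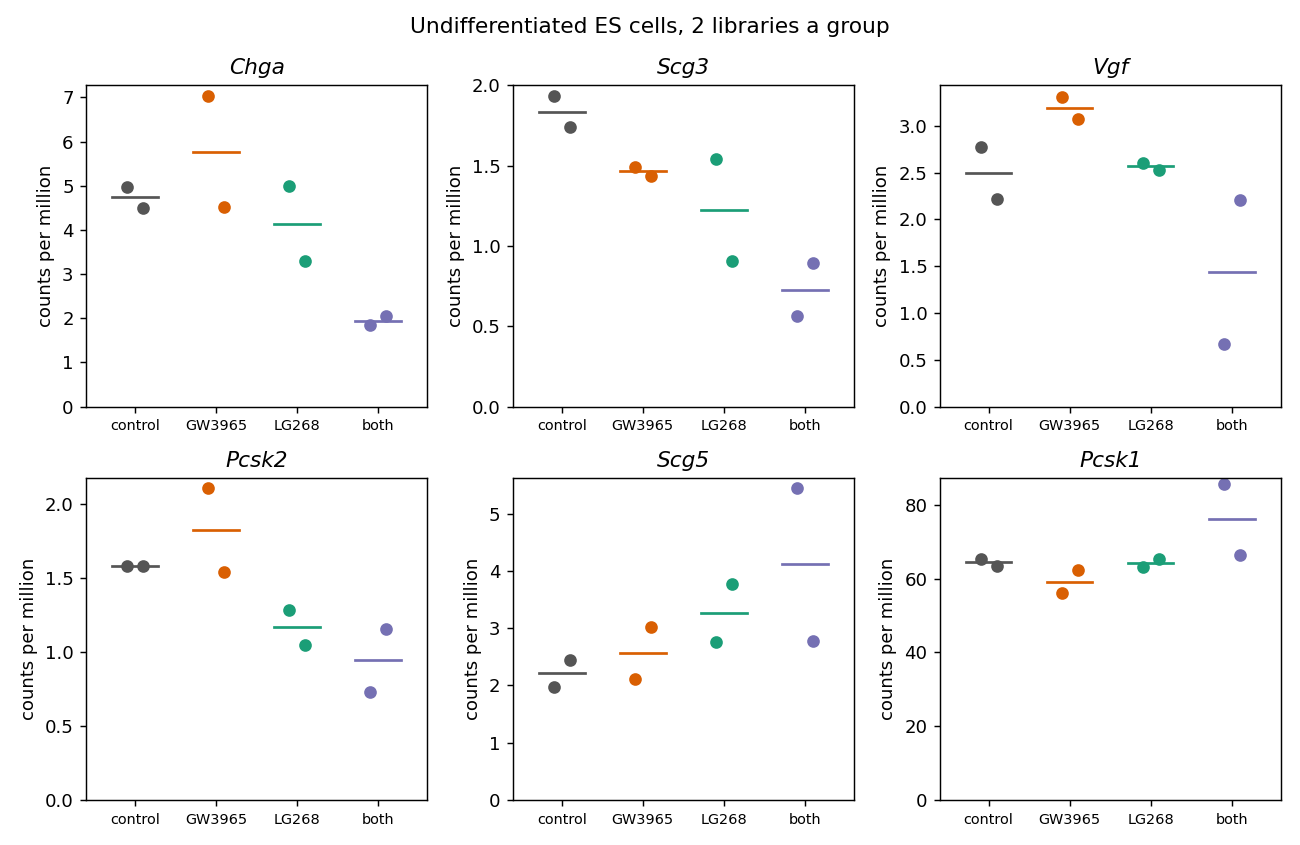
CPM of 6 genes in the 8 ES libraries (vertical axes start at 0), by ligand; points are libraries and lines the mean of 2. The 2 both-ligand libraries lie at 1.85 and 2.05 for Chga, below the other 6, and lie apart from each other for Vgf, Scg5 and Pcsk1.

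Against GW3965 alone, the both-ligand libraries lay wholly below for 4 of 8 genes (Chga, Scg3, Vgf and Pcsk2) and wholly above for 2 (Chgb and Pcsk1). Over all genes tested, 26.5% lay wholly below and 23.8% wholly above. Of all genes 10.7% passed the test there, 632 higher and 1199 lower with TMM scaling, and 952 higher and 938 lower with DESeq2's size factors. Scg3 was 2.01-fold lower (log2 -1.0045, SE 0.32), Pcsk2 2.00-fold lower (-0.9992, SE 0.29) and Vgf 2.20-fold lower (-1.14, SE 0.35). Pcsk1 was 1.29-fold higher (0.37, SE 0.13). Without the second both-ligand library Vgf was at -2.24, and without the first at -0.54.

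Neither ligand alone moved a tested member past an adjusted p of 0.05 in edgeR's quasi-likelihood test. With GW3965 the count was 0 of 7 (0.32% of all genes), with 0 at an unadjusted p below 0.05. With LG268 it was 0 of 8 (0.851% of all genes), with 1 at an unadjusted p below 0.05. That gene was Scg3 (log2 -0.54, SE 0.25, edgeR adjusted p = 0.5006). DESeq2 and limma-voom also called 0 in both comparisons. The median log2 change was 0.13 over the 8 genes and 0 over all genes with GW3965, and 0.02 and -0.0018 with LG268.

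Both ligands together changed 2 of the 7 tested genes against control, in opposite directions, where 11.3% of all genes passed (4.83% higher, 6.47% lower). These comparisons share libraries with the contrast that chose the set. Scg3 fell 2.49-fold (log2 -1.32, SE 0.32, edgeR adjusted p = 0.007747), with both libraries below both controls. Scg5 rose 1.83-fold (0.87, SE 0.27, edgeR adjusted p = 0.0396), with both libraries above both controls. Pcsk2 (-0.73, SE 0.31, edgeR adjusted p = 0.1273), Vgf (-0.77, SE 0.36, 0.1893) and Pcsk1 (0.24, SE 0.13, 0.288) did not pass. Neither call held in limma-voom (Scg3 adjusted p = 0.08673, Scg5 0.1766) or in an edgeR fit of the groups compared alone (0.1067 and 0.1841). Scg3 was also lost without control replicate 1 (0.05806) or both-ligand replicate 1 (0.1266), and Scg5 without control replicate 1 (0.2212), control replicate 2 (0.09552) or both-ligand replicate 1 (0.6491). Without both-ligand replicate 2, Vgf fell as well (-1.88, edgeR adjusted p = 0.005633). Over all genes 829 were higher and 1110 lower, or 1000 and 923 with DESeq2's size factors.

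Against LG268 alone, both ligands changed 0 of 7 tested members in edgeR, with 4.21% of all genes passing. At an unadjusted p below 0.05 there were 2, Scg3 (log2 -0.78, SE 0.34) and Vgf (-0.82, SE 0.36). DESeq2's Wald test and limma-voom called 0. Without both-ligand replicate 2 there were 2 calls, Vgf lower (-1.92, adjusted p = 0.005911) and Scg5 higher (0.76, adjusted p = 0.03757). Over all genes 280 were higher and 442 lower, or 359 and 351 with DESeq2's size factors.

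Some other genes of the secretory pathway passed with both ligands against control, where 11.3% of all genes passed (4.83% higher, 6.47% lower). In that comparison 2 of 21 dense-core vesicle genes rose (Qpct, a glutaminyl cyclase, 1.66-fold, and Hid1, a vesicle factor, 1.30-fold) and 0 fell. Mbtps1, the site-1 protease, fell 1.15-fold. Penk, the enkephalin precursor, rose 1.31-fold among 28 tested peptide precursors. Creb1, which encodes a factor for the motif printed above, rose 1.17-fold (adjusted p = 0.04808), and 0 of the 7 other CREB genes passed. Rest, the repressor of neuronal genes in non-neuronal cells, was at 121 and 126 CPM in controls and at 114 and 119 with both ligands, and did not pass (adjusted p = 0.56). Of the 9 genes of its list 1 fell (Rcor2, 1.28-fold) and 0 rose.

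ES cells had little sign of secretory cell types beside these values. Of 11 pancreatic or gut endocrine markers, 9 were under 1 CPM in both control libraries and 5 at 0, among them Ins1, Ins2 and Gcg. Of 6 sympathoadrenal markers 5 were under 1 CPM, and Dbh was at 0. The neuron list (11 genes) summed to 463 to 477 CPM in controls, 517 to 533 with GW3965, 484 to 502 with LG268 and 541 to 557 with both, and the pluripotent list (10 genes) to between 2759 and 3062 in all 8 libraries. With both ligands against control 3 of 11 neuron markers rose and 1 fell, and 1 of 10 pluripotency markers rose and 3 fell. Of the pluripotency markers 2 fell against LG268 and 5 fell against GW3965 (median log2 -0.32), and 0 rose in either. The part of other cells in these results was not tested.

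Differentiation to day 8 raised 6 of the 8 genes and lowered Pcsk1. Against ES control, 39.7% of all genes rose and 39.1% fell, 78.7% in all, so the number of calls is near the background. The median log2 change was 4.23 over the 8 genes and 0 over all genes. Leaving out any library of these groups, or using another tool, scaling or filter listed below, left 7 calls.

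Among the granins, Chgb went from 0.264 and 0.198 CPM in ES controls to 49.97 and 48.1 at day 8. That was a rise of 210-fold (log2 7.71, SE 0.37, edgeR adjusted p = 1.512e-18), from 11 counts in the control pair. Scg2 went from 0.220 and 0.198 to 30.8 and 26.7, a rise of 135-fold (7.07, SE 0.63, edgeR adjusted p = 1.196e-14), from 10 counts. Both genes were close to absent before and ample after, so the size of the fold rests on few counts. Scg3 went from 1.93 and 1.74 to 86.9 and 87.9, 47.6-fold (5.57, SE 0.17). Chga, which ES cells already held at 4.97 and 4.50, reached 26.9 and 28.03, 5.80-fold (2.54, SE 0.18, edgeR adjusted p = 4.126e-11). Vgf, at 2.48 and 3.07 against 2.77 and 2.21, overlapped its controls and did not pass (0.17, SE 0.30, edgeR adjusted p = 0.6251). It was the one gene of the 8 with no call.

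The chaperone and its convertase rose by similar factors. Scg5 went from 1.98 and 2.45 CPM to 37.8 and 39.6, 17.4-fold (log2 4.12, SE 0.23). Pcsk2 went from 1.58 in both to 34.4 and 29.99, 20.3-fold (4.34, SE 0.20). Pcsk1 went from 65.4 and 63.5 CPM to 1.04 and 0.849, a fall of 68.2-fold (-6.09, SE 0.30, edgeR adjusted p = 9.867e-16). Per length, Pcsk1 reads outnumbered Pcsk2 reads by 58.3 and 56.7 to 1 in ES controls, and Pcsk2 reads outnumbered Pcsk1 reads by 23.4 and 25.01 to 1 at day 8. The ratio of Pcsk2 to Pcsk1 per length stayed between 8.50 and 23.2 in the later groups.

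**Figure D3:**
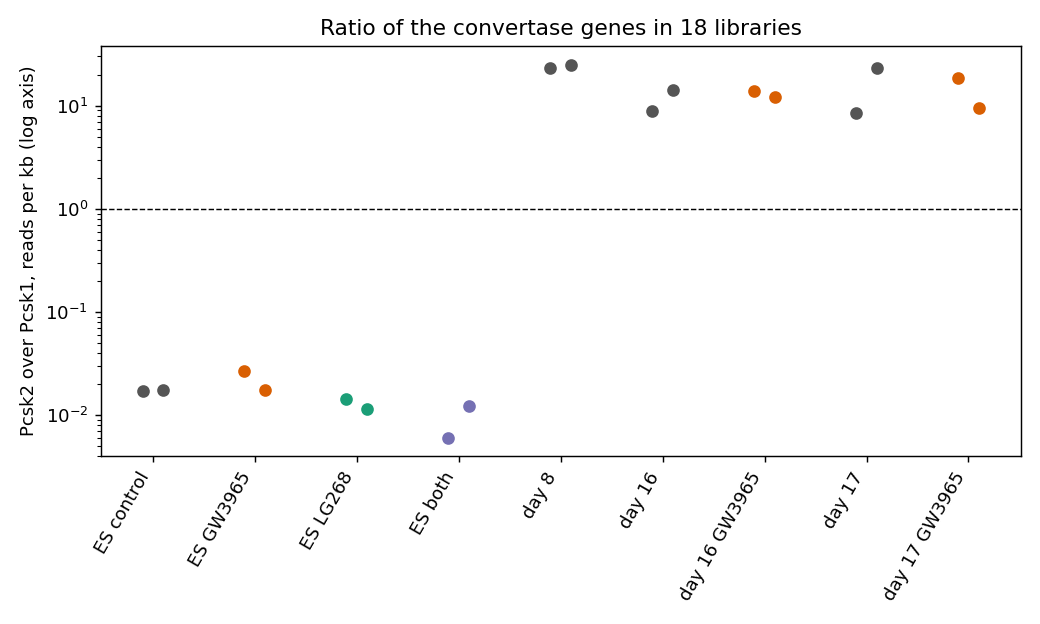
Ratio of Pcsk2 to Pcsk1 in reads per kb of exon (log axis) in each of 18 libraries; the dashed line marks equal reads per length, and colours are as in the plot of CPM by library. All 8 ES libraries lie below the line, the nearest at 0.0266, and all 10 differentiated libraries above it, the nearest at 8.50.

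The rest of the secretory pathway did not move as a block at day 8. Of 21 dense-core vesicle genes 13 rose and 2 fell (median log2 0.93, against 0 over all genes). Cadps, which primes dense-core vesicles for release, rose 486-fold from 0.277 to 134 CPM, Ptprn2 34.6-fold and Rab3a 16.8-fold. Cpe, the carboxypeptidase that trims convertase products, rose 6.78-fold to 311 CPM, and Pam, which amidates peptides, rose 1.91-fold. Pcsk1n, which encodes the inhibitor proSAAS of the Pcsk1 product, was at 2.83 and 2.99 CPM on average and did not pass (edgeR adjusted p = 0.8076). Among other convertases Pcsk5 rose 4.13-fold and Pcsk7 2.54-fold, while Pcsk6 fell 2.83-fold, Pcsk4 1.98-fold, Furin 1.75-fold and Mbtps1 1.5-fold; the last 3 were named after their values were seen.

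Of 36 peptide precursors 28 were tested, of which 17 rose and 5 fell. Sst, Gcg and Cartpt were at 0 in both ES control libraries, and against a floor of 3 counts per library they were at least 289-fold, 75.7-fold and 73.2-fold higher at day 8. Trh, the precursor of thyrotropin-releasing hormone, fell 331-fold, from 307 to 0.912 CPM. Trh and Pcsk1 were high in the same ES libraries and low in the same day 8 libraries, where 39.1% of all genes fell. With GW3965 at day 16 they parted, Trh being 7.94-fold lower and Pcsk1 1.61-fold higher. A link between Trh and Pcsk1 was not tested. Rest fell 3.06-fold (log2 -1.61, SE 0.08), and of the 9 genes of the REST list 3 rose and 5 fell. Of 8 CREB genes 5 rose and 2 fell, with Crtc1, a coactivator of CREB, up 4.12-fold and Creb1 up 1.89-fold.

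Marker lists moved with these values. At day 8, 11 of 11 neuron markers, 6 of 6 progenitor markers and 6 of 6 mesenchyme markers rose, and 10 of 10 pluripotency markers fell. The neuron sum rose from 463 to 477 CPM in ES controls to 3194 to 3212 at day 8, and the mesenchyme sum from 108 to 115 to 1633 to 1909. Of the 10 tested endocrine markers 9 rose, yet Ins1 stayed at or below 0.426 CPM and Ins2 at or below 0.0387. Gcg read 5.65 and 13.3 CPM. Their part in the rises was not tested.

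Between day 8 and day 16 the 8 genes went both ways, and the number of calls was near the background. Scg2, Vgf and Pcsk1 rose and Scg3 and Scg5 fell, 5 calls where 29.4% of all genes rose and 32.2% fell (61.6% in all). Scg2 went to 59.6 and 59.2 CPM, 2.07-fold (log2 1.05, SE 0.13, edgeR adjusted p = 7.02e-07). Vgf went to 6.67 and 7.38, 2.53-fold (1.34, SE 0.27, edgeR adjusted p = 0.0002264). Scg3 fell 1.66-fold to 54.2 and 51.2 (-0.73, SE 0.09, edgeR adjusted p = 1.204e-06). In these 3 genes the libraries of the 2 days did not overlap, as in 82.5% of all genes, and the calls held with each library left out.

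Pcsk1 rose 2.17-fold to 2.47 and 1.73 CPM (log2 1.12, SE 0.34, edgeR adjusted p = 0.006208), on 26 to 63 counts a library. That call was lost in limma-voom (0.05809), without day 16 replicate 1 (0.06412) and without day 8 replicate 2 (0.07024). Scg5 fell 1.30-fold to 28.7 and 30.6 (-0.38, SE 0.15, edgeR adjusted p = 0.03112), a call lost with DESeq2's size factors (0.05409), DESeq2's Wald test (0.05631) and with any of the 4 libraries left out (0.05805 to 0.1128). The count of called genes was 3 without day 16 replicate 1 or day 8 replicate 2, and 4 without either of the other libraries. Chga (28.9 and 30.5), Chgb (47.9 and 46.3) and Pcsk2 (31.1 and 34.5) did not pass. The median log2 change of the 8 was 0.07, and -0.04 over all genes.

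Over the same step 15 of 21 dense-core vesicle genes rose and 3 fell. Rab27b and Rab27a, GTPases of vesicle docking, rose 4.84-fold and 3.04-fold, Pam 1.41-fold, Cpe 1.28-fold and Pcsk1n 1.76-fold. Of the 28 tested precursors 9 rose and 5 fell, with Trh up 23.4-fold, Tac1, the substance P precursor, up 17.8-fold and Penk up 8.83-fold to 171 CPM. Pcsk6, Pcsk5 and Furin rose among the other convertases. Rest did not pass (1.10-fold, edgeR adjusted p = 0.1769), and Creb1 fell 1.64-fold. The neuron sum was lower at day 16 (1829 to 1884 CPM), while the mesenchyme sum reached 9880 to 11290 and the astrocyte sum went from 57.0 to 59.7 up to 844 to 878.

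Day 17 differed from day 16 in 5 of the 8 genes, where 26.8% of all genes rose and 29.5% fell (56.2% in all). This number of calls was near the background too. Scg2 rose 1.42-fold to 86.5 and 81.6 CPM (log2 0.50, SE 0.12, edgeR adjusted p = 0.001625) and Vgf 1.84-fold to 12.3 and 13.8 (0.88, SE 0.24, 0.003901). Scg3 fell 1.55-fold to 36.1 and 31.7 (-0.63, SE 0.10, 1.64e-05) and Chga 1.49-fold to 21.1 and 18.7 (-0.57, SE 0.15, 0.002816). Day 17 libraries lay outside those of day 16 for all 4, as for 77.7% of all genes. Chgb rose 1.17-fold to 55.95 and 53.9 (0.22, SE 0.08, edgeR adjusted p = 0.0299), and lost its call with no filter (0.05139), in DESeq2's Wald test (0.05958) and with any library left out (0.05814 to 0.1365).

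Scg5, at 22.5 and 26.5 CPM, did not pass (log2 -0.28, edgeR adjusted p = 0.1314), but passed in limma-voom (0.03744) and 3 other alternatives. Pcsk1 (2.35 and 0.991, on 55 and 17 counts) and Pcsk2 (28.2 and 32.4) overlapped day 16. Scg2 and Vgf rose at both steps after day 8, and Scg3 fell at both. Day and read counting cannot be told apart for day 17 against day 16. Of 21 dense-core vesicle genes 3 rose and 9 fell, with Pcsk1n down 2.19-fold, Ptprn 2.05-fold, Pam 1.43-fold and Cpe 1.20-fold. Rest rose 1.40-fold, while of the 9 genes of its list 2 rose and 6 fell (median log2 -0.85). Of 8 CREB genes 4 rose and 0 fell. The neuron sum was 1349 to 1373 CPM, with 0 of 11 markers up and 6 down. The astrocyte sum was 2635 to 2967, with 3 of 5 markers up and 2 down.

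GW3965 at day 16 raised all 8 genes, by 1.61-fold to 2.03-fold. Over all genes 13% rose and 18.7% fell, 31.7% in all, and the median log2 change was 0.81 over the 8 genes and -0.03 over all genes. Both GW3965 libraries lay above both day 16 libraries for each of the 8, as they did for 29.2% of all genes. With the 4 single libraries left out in turn, 6 or 7 of the 8 passed.

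The chromogranins and Scg2 rose together. Chga went from 28.9 and 30.5 CPM to 50.2 and 63.5, 1.91-fold (log2 0.94, SE 0.14, edgeR adjusted p = 4.127e-05). Chgb went from 47.9 and 46.3 to 71.8 and 82.5, 1.64-fold (0.71, SE 0.08, edgeR adjusted p = 2.275e-06). Scg2 went from 59.6 and 59.2 to 106 and 135, 2.03-fold (1.02, SE 0.12, edgeR adjusted p = 2.917e-06). In these and in Scg3, Scg5 and Vgf the second GW3965 library was the higher, and in Pcsk2 the first.

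Scg3 went from 54.2 and 51.2 CPM to 79.6 and 92.5, 1.64-fold (log2 0.71, SE 0.09). Scg5 went from 28.7 and 30.6 to 51.1 and 58.4, 1.85-fold (0.88, SE 0.15, edgeR adjusted p = 0.0001133), and its convertase Pcsk2 from 31.1 and 34.5 to 64.5 and 57.1, also 1.85-fold (0.89, SE 0.11, edgeR adjusted p = 5.224e-06). These 3 passed in every alternative tried.

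Vgf and Pcsk1, the lowest of the 8, had the least certain rises. Vgf went from 6.67 and 7.38 CPM to 9.32 and 14.2, 1.67-fold (log2 0.74, SE 0.24, edgeR adjusted p = 0.02115). It was lost without day 16 replicate 1 (0.1171) or 2 (0.07007) and without GW3965 replicate 2 (0.3073). Pcsk1 went from 2.47 and 1.73 to 3.27 and 3.31, 1.61-fold (0.68, SE 0.25, edgeR adjusted p = 0.04128). It was lost in DESeq2's Wald test (0.0538), limma-voom (0.1283) and the fit of these groups alone (0.07691), without day 16 replicate 2 (0.3842) and without GW3965 replicate 1 (0.09066) or 2 (0.1187).

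Other vesicle genes rose in part. Of 21 dense-core vesicle genes 12 rose and 1 fell (median log2 0.60). Ica1 rose 1.86-fold, Cadps 1.82-fold, Ptprn, a receptor of vesicle membranes, 1.78-fold, Syt7, a calcium sensor of release, 1.74-fold and Cpe 1.14-fold. Pam (1.03-fold) and Pcsk1n (1.29-fold) did not pass. Among convertases of other routes 3 fell (Pcsk5 1.43-fold, Mbtps1 1.30-fold, Furin 1.30-fold). Peptide precursors went both ways, 4 up and 4 down of 28, with Npy up 2.00-fold, Pnoc up 1.75-fold, Calca down 2.19-fold and Trh down 7.94-fold from 21.9 to 2.72 CPM. Rest fell 1.43-fold (log2 -0.52, SE 0.08, edgeR adjusted p = 9.765e-05), 6 of the 9 genes of its list fell and 0 rose, and 1 of 8 CREB genes rose and 2 fell.

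Cell type markers moved at day 16 too. The neuron sum rose from 1829 to 1884 CPM to 2733 to 2863, with 9 of 11 markers up and 0 down (median log2 0.61). The mesenchyme sum fell from 9880 to 11290 down to 4622 to 5852 (6 of 6 down), the astrocyte sum from 844 to 878 down to 356 to 496 (4 of 5 down), and 5 of 6 progenitor markers fell. Of 10 pluripotency markers 1 rose and 7 fell. Endocrine markers had 0 of 10 calls, with Ins1 at or below 0.936 CPM and Ins2 at or below 0.612 in these 4 libraries. Of 5 tested sympathoadrenal markers 0 rose and 2 fell. The part of neuronal share in the rise of the 8 genes was not tested.

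**Figure D4:**
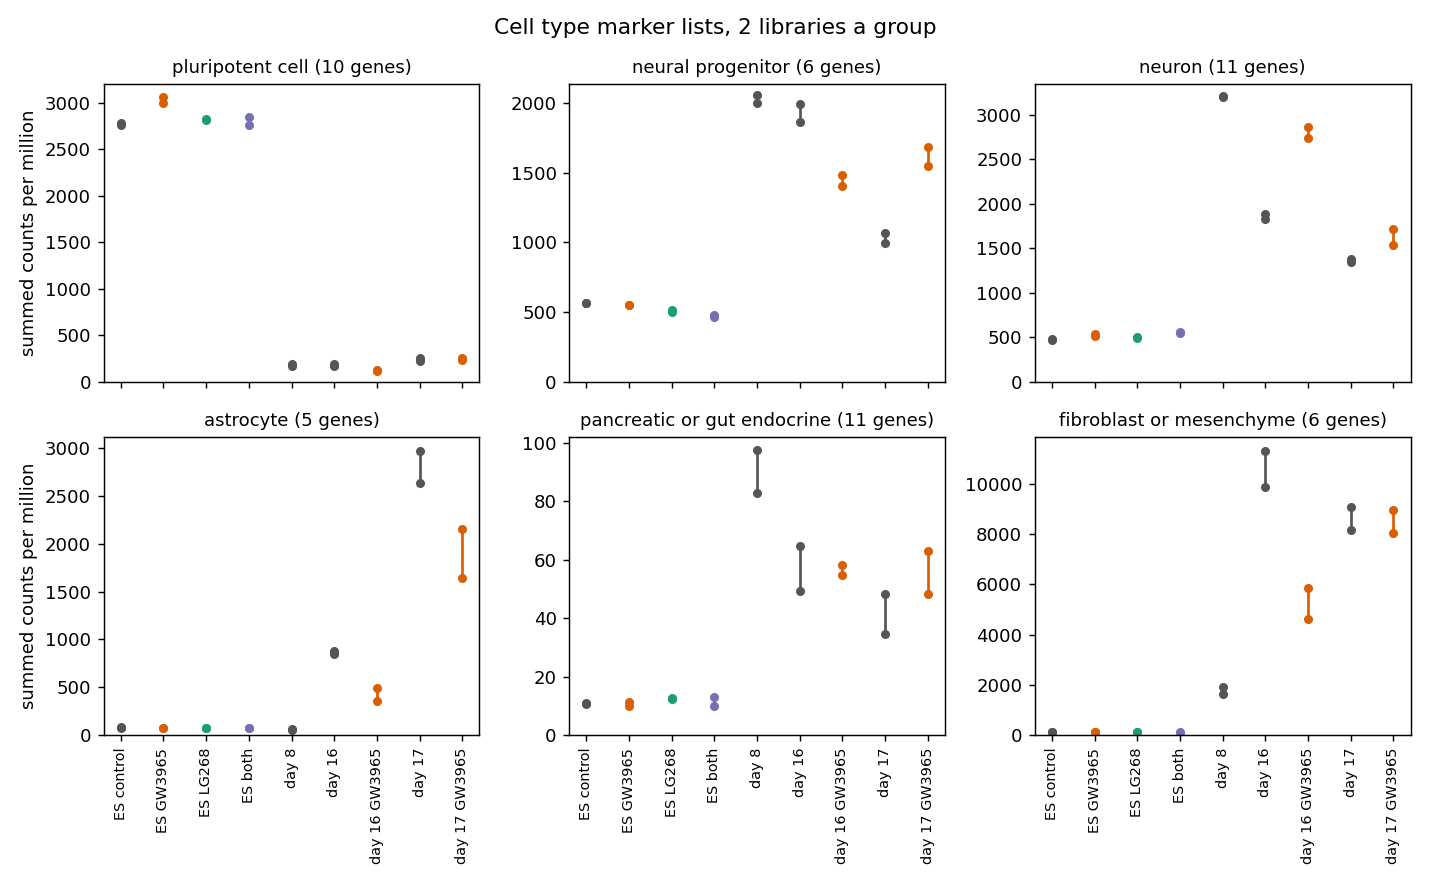
Summed CPM (vertical axes start at 0) of 6 marker lists by group; the points are the lower and the higher of 2 libraries, joined by a line, in the colours of the other plots. At day 16 GW3965 goes with a higher neuron sum (2733 to 2863 against 1829 to 1884) and a lower mesenchyme sum (4622 to 5852 against 9880 to 11290), and at day 17 the mesenchyme ranges overlap.

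GW3965 at day 17 lowered 2 of the 8 genes and raised 0, where 17.2% of all genes rose and 18% fell (35.2% in all). Vgf fell 3.05-fold, from 12.3 and 13.8 CPM to 3.88 and 4.62 (log2 -1.61, SE 0.26, edgeR adjusted p = 7.397e-05), and passed in every alternative. Chgb fell 1.25-fold, from 55.95 and 53.9 to 41.9 and 45.8 (-0.33, SE 0.09, edgeR adjusted p = 0.005872). Chgb was lost without day 17 replicate 1 (0.05032) or GW3965 replicate 1 (0.07541), which left 1 call.

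Both GW3965 libraries lay below both day 17 libraries for 6 of the 8 genes, as for 32.6% of all genes, but 4 of these 6 did not pass. Scg2 read 59.9 and 75.3 CPM against 86.5 and 81.6 (log2 -0.31, SE 0.12, edgeR adjusted p = 0.05399), and passed in 7 alternatives, among them no filter (0.003829) and DESeq2's size factors (0.04625). With no filter Scg5 passed as well (0.04465), for 4 calls. Scg3 read 29.6 and 29.0 against 36.1 and 31.7, Scg5 19.1 and 20.1 against 22.5 and 26.5, and Pcsk2 27.95 and 25.4 against 28.2 and 32.4. Chga (20.4 and 20.9 against 21.1 and 18.7) and Pcsk1 (1.07 and 1.89 against 2.35 and 0.991) overlapped. The median log2 change was -0.28 over the 8 genes and 0.02 over all genes.

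Of 21 dense-core vesicle genes 3 rose at day 17 (Rab27a 1.64-fold, Hid1 1.44-fold, Rab3d 1.37-fold) and 2 fell, one being Syt7 (1.44-fold). Trh rose 2.72-fold, from 7.56 to 21.1 CPM, and 3 of 28 precursors rose and 4 fell. Rest, at 62.9 and 65.8 against 60.7 and 63.4 CPM, did not pass (edgeR adjusted p = 0.6687), while 4 of the 9 genes of its list rose and 1 fell. The neuron sum was 1538 to 1719 CPM against 1349 to 1373, with 6 of 11 markers up and 3 down, the astrocyte sum was 1641 to 2154 against 2635 to 2967, and the mesenchyme ranges overlapped. The progenitor sum was 1545 to 1686 CPM against 992 to 1065, with 4 of 6 markers up and 0 down. Of 10 tested endocrine markers 3 rose and 0 fell (median log2 0.70), and of 10 pluripotency markers 5 rose and 2 fell. The part of the markers was not tested.

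The GW3965 response differed between day 17 and day 16 for 7 of the 8 genes by the test of the difference itself, all lower at day 17, where 17% of all genes were lower and 20% higher (37% in all). The largest difference was that of Vgf (log2 -2.35, SE 0.35, edgeR adjusted p = 2.988e-05), followed by Scg2 (-1.34, SE 0.17, 5.842e-06) and Scg5 (-1.20, SE 0.22, 0.0002217). Pcsk2 (-1.07), Chgb (-1.04), Scg3 (-0.93) and Chga (-0.89, SE 0.21, 0.002356) followed. Pcsk1 did not pass (-0.92, SE 0.43, edgeR adjusted p = 0.1006), but passed with no filter (0.01682), without day 17 replicate 2 (0.01599) and without GW3965 replicate 2 of day 17 (0.03717). The median difference was -1.05 over the 8 genes and 0.03 over all genes. Each response was taken between libraries counted alike, but day, counting and the length of exposure read from the file names go together.

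Other genes differed between the days in both directions. The response of Trh was higher at day 17 by 4.43 on the log2 scale and that of Rest by 0.57 (edgeR adjusted p = 0.0008116). Of 21 dense-core vesicle genes 11 were lower and 4 higher, with Syt7 lower by a difference of -1.32 and Ptprn by -1.15. The neuron list had 8 of 11 lower and 3 higher, and the progenitor list 6 of 6 higher.

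**Figure D5:**
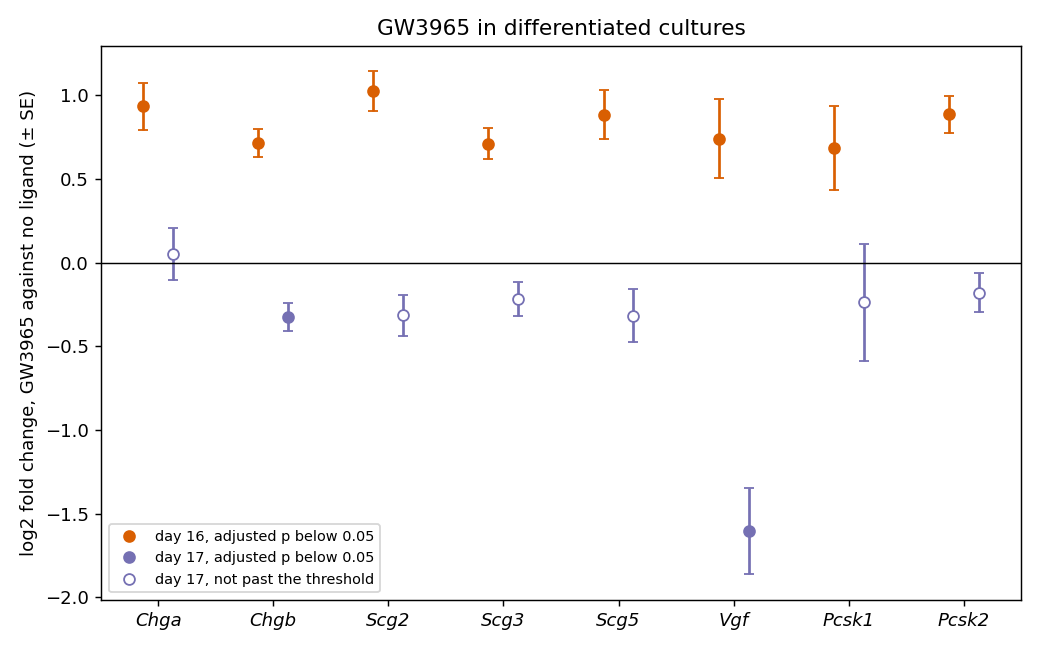
Log2 fold change of the 8 genes with GW3965 against no ligand, with standard error bars from edgeR, at day 16 (orange) and day 17 (violet), n = 2 libraries a group; filled points have an adjusted p below 0.05. All 8 lie above 0 at day 16, at 0.68 to 1.02, and at day 17 Vgf stands alone at -1.61 while the rest lie between -0.33 and 0.05.

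Similarity of pattern, not of level, was taken as the Pearson correlation of log2 CPM over the 9 group means. This describes 9 points that share libraries and are spread mostly between ES and later groups. For each gene the closest non-member genes were ranked. Those of Chga were Map3k10 (0.9975), Dos (0.9959) and Armc6 (0.9949), those of Chgb Lrrtm3, Ncam1 and Gdap1 (0.9993 to 0.9996), and those of Scg2 Spock1, Spock3 and Dbc1 (0.9982 to 0.9985). Those of Scg3 were Nell2, Soga3 and Enox1 (0.9965 to 0.9972), and those of Scg5 Ulk2, Tspan6 and Gm3985 (0.9955 to 0.9958). Pcsk2 was closest to Lingo1 (0.999), Ptpn5 and Vstm2l, and Pcsk1 to Sema4d (0.9977), Tbc1d8 and Sigirr. Vgf had the loosest neighbours, C1ql2 (0.9729), Map1lc3a (0.9658) and Col20a1 (0.9594). C1ql2 and Gm3985 rest on few counts, with highest group means of 0.553 CPM (day 17) and 1.49 CPM (day 16 with GW3965). Over the 8 ES libraries alone Chga was closest to Map2k3 (0.9829), Dph2 (0.9819) and Tsen34 (0.9749), none of which was among its 3 over all groups.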

How the data were processed

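The deposited values were counts of reads per gene symbol in 18 libraries. Per the submitters' processing notes, the tools named were TopHat2 2.0.7, Cufflinks 2.0.2, HTSeq 0.6.0 and Cuffdiff 2.0.2, and the build was mm10. The role and order of these tools, the annotation and the strand setting are not given in the sources used here. The 5 summary lines of each file were left out; reads given to no gene were 62.77 to 65.92% in the 14 files other than day 17, and 42.14 to 43.36% in the day 17 files beside 31.84 to 33.53% listed as multiply aligned.

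The 8 members and all lists were chosen with earlier results of these data known. Genes passing filterByExpr were scaled by TMM (factors 0.9124 to 1.108) and fitted with edgeR 4.0.16 in R 4.3.3, by its quasi-likelihood test, in 1 model of 9 groups. Tests were two-sided and Benjamini-Hochberg adjusted over 17166 genes, with a threshold of 0.05 and no minimum fold. Of 11 comparisons 10 gave tests of members. Alternatives used DESeq2 1.42.0 (size factors or Wald test), limma-voom 3.58.1, other filters, the groups compared alone, a replicate block and each library left out; fits without day 17 or without both-ligand libraries were added after seeing the data. The main fit was run on simulated counts only for LG268 in ES cells and for GW3965 at day 16. Those counts were drawn with the spread estimated from these data, so they cannot check that spread. A fit with 1 library left in a group assumes that it varies like the others.

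All members were named in every comparison. Of each pathway list the called genes of at least 1 CPM with the 4 largest changes could be named, always Rest, Creb1, Pcsk1n, Cpe and Pam, with the 3 genes most like each member (prior count 2). The defining markers Ins1, Ins2, Gcg and Dbh were named besides, with their values known. Replicate numbers showed no pairing (36 pairs of groups, correlation -0.096 to 0.0691). One gene of the list of other convertases is not reported here. Intervals cover counting error only.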

Additional observations from a re-analysis of the deposited data

Results flagged for a closer look

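The response to GW3965 differed between day 17 and day 16, by the test of the difference in edgeR, for 7 of the 8 genes. On the log2 scale the difference (day 17 minus day 16) was -0.89 for Chga, -1.04 for Chgb, -1.34 for Scg2, -0.93 for Scg3, -1.2 for Scg5, -2.35 for Vgf and -1.07 for Pcsk2. Each of the 7 rose at day 16, and of these Vgf and Chgb fell at day 17.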

How the results depend on the processing

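No tested value of a member changed sign across a call: of 986 alternative values 933 stayed on the same side of the threshold, 35 lost and 18 gained a call. Of 129 alternative counts of called members 118 stayed within 1.5 times the reported count. With both ligands against control (2 called), limma-voom and the fit of the groups compared each gave 0 (in the latter 5 members were tested), and leaving out a library gave 0 to 3. Against LG268 (0 called) leaving out a library gave 0 to 2. For day 16 against day 8 (5 called) it gave 3 to 4, and for GW3965 at day 17 (2 called) 1 to 3, with 4 when no filter was used. The cause was not tested. Counts over all genes moved by more than 1.5 times in the ES comparisons: for GW3965 from 53 higher and 2 lower to 147 and 17 with no filter and 307 and 62 in the fit of the groups compared, and for LG268 from 89 and 57 to 198 and 138, 476 and 367, and in DESeq2's Wald test 131 and 100. In the fit of the groups compared both ligands gave 270 and 157 against control (from 829 and 1110), 53 and 3 against LG268 (from 280 and 442; 435 and 938 with no filter) and 66 and 45 against GW3965 (from 632 and 1199). Without both-ligand replicate 1 the same 3 comparisons gave 355 and 372, 78 and 35, and 111 and 214, and without both-ligand replicate 2 they gave 1170 and 1674, 980 and 1399, and 1253 and 1824. Against GW3965, leaving out its replicate 1 gave 153 and 183 and its replicate 2 gave 152 and 690, and against LG268, leaving out its replicate 1 gave 68 and 55 and its replicate 2 gave 60 and 43. Without control replicate 1 or 2, both ligands gave 319 and 399 or 374 and 406, LG268 33 and 9 or 37 and 25, and GW3965 28 and 0 or 33 and 0. LG268 against control gave 47 and 23 or 35 and 7 without its replicate 1 or 2, and GW3965 30 and 1 without its replicate 1. Without GW3965 replicate 2 of day 16 that day's response gave 1525 and 2064 (from 2235 and 3211). Of 1410 alternative counts of list genes 159 moved by more than 1.5 times. With the replicate block the counts were 2 for both ligands against control, 7 at day 8, 8 for GW3965 at day 16, 2 at day 17 and 7 for the difference, each as reported; replicate numbers are not shown to pair the libraries. Without the 4 day 17 libraries GW3965 at day 16 gave 8 calls. Depth limits Chgb and Scg2 in ES cells (1 to 10 counts a library) and Pcsk1 after differentiation (17 to 108).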
